A study of Homo sapiens with 12 samples.

Results

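A group of 10 genes of the oxygen-sensing pathway was followed in C4.2B prostate cancer cells treated with an AKT inhibitor, an EZH2 inhibitor or both. They were taken by name from the gene counts of 12 polyA RNA-seq libraries, and all 10 of the 10 names were found once among 58735 genes. They are the transcription factor subunits HIF1A, EPAS1 and ARNT, the prolyl hydroxylases EGLN1, EGLN2 and EGLN3, the ubiquitin ligase subunit VHL and the hypoxia-responsive genes VEGFA, STC1 and NDRG1. C4.2B is a castration-resistant human line derived from LNCaP, and it is the only line here, so the results are those of 1 cell line. Each of the 4 arms had 3 libraries, A, B and C. DMSO cells received vehicle throughout. AKTi cells received the AKT inhibitor ipatasertib at 0.25 μM on day 0. EZH2i cells received the EZH2 inhibitor tazemetostat at 1 μM from 6 days before day 0 and onward. Combination cells had the same tazemetostat schedule with 0.25 μM ipatasertib added on day 0. All arms, DMSO included, were moved to charcoal-stripped serum, which is depleted of androgens, on day 0 and collected 24 hours later. The libraries are separate plates of 1 line, so p-values measure the spread between plates, which may be technical.

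In cells with enough oxygen, the EGLN enzymes hydroxylate the alpha subunits HIF-1α (HIF1A) and HIF-2α (EPAS1), and VHL then binds the hydroxylated protein and directs its ubiquitination and breakdown. When oxygen is low, or when AKT and mTOR signaling raises HIF-1α synthesis, the alpha subunit accumulates, pairs with ARNT and binds short DNA elements whose core reads ACGTG or GCGTG beside its target genes. The libraries measure RNA, so the amount, hydroxylation and breakdown of the HIF proteins, the steps at which the pathway is chiefly controlled, were not measured.

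The total count per library ranged from 14133755 to 22276417, and 16646 genes, among them all 10 members, passed the filter on low counts. Levels are counts scaled to a common library total (CPM, with TMM scaling), and levels of different genes are compared only as length-scaled CPM, that is RPKM. Differences are log2 fold changes with standard errors (SE) from edgeR's quasi-likelihood test over all 12 libraries, and a gene is said to rise or fall where its Benjamini-Hochberg adjusted p over all 16646 genes was under 0.05. The 3 treated arms were compared with the same DMSO libraries. In bulk RNA, fewer cells of a type and less RNA per cell cannot be told apart. All 8 prostate line markers were expressed, at 96.7 to 3980 CPM, and of 12 markers of blood, endothelial, stromal and basal cells 10 stayed under 1 CPM in every library, with CD3E and KRT5 at 0 in all 12. The summed level of those 12 markers was 6.76 to 10.3 CPM in DMSO, 8.32 to 9.87 in AKTi, 22.2 to 25.3 in EZH2i and 16.1 to 20.7 in the combination, nearly all from COL1A1 and VWF. Its part in the results was not tested.

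Against DMSO, AKTi raised 2 and lowered 4 of the 10 genes, where 42.5% of all tested genes passed the test (20.6% higher, 21.9% lower). EZH2i raised 6 and lowered 2, against 64.1% of all genes (32.6% higher, 31.5% lower). The combination raised 7 and lowered 1, against 73.2% of all genes (38% higher, 35.2% lower), and these 8 calls became 5 without DMSO A, any 1 AKTi library, EZH2i A or combination A. With so many of all genes changed, the number of members called is not in itself a result about them, and they are described by direction and size. NDRG1 rose in every treated arm, VEGFA fell with either inhibitor and rose with both, STC1 fell wherever AKT was inhibited, and EPAS1 rose wherever EZH2 was inhibited. With TMM scaling, VHL had the smallest log2 fold change of the 10 in EZH2i and in the combination, though not in AKTi.

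**Figure D1:**
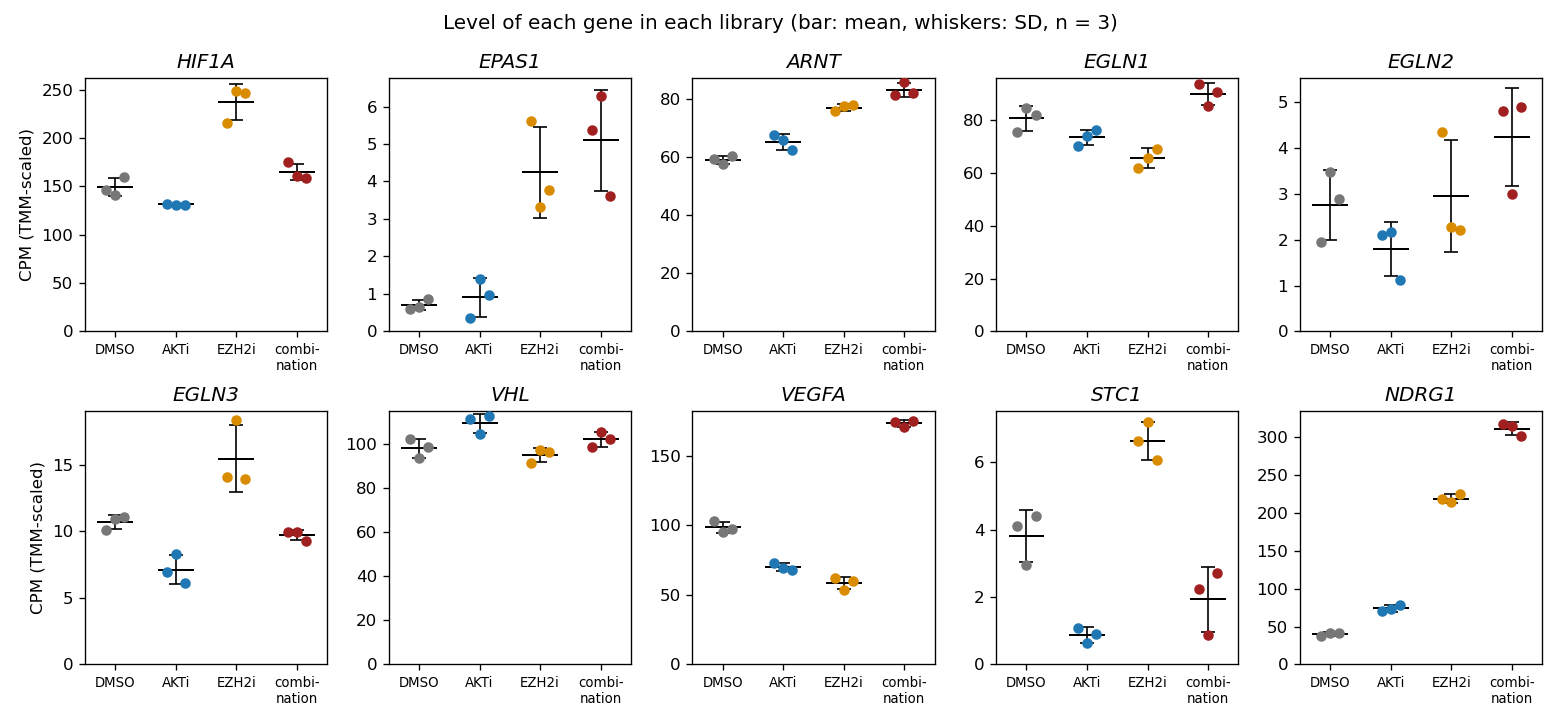
Level of each of the 10 genes in each library, in TMM-scaled CPM on linear axes that start at 0. Points are libraries A, B and C of the 4 arms, bars are means and whiskers are SD (n = 3). VEGFA is lowest in EZH2i (53.4 to 61.9 CPM) and highest in the combination (171 to 175 CPM), and NDRG1 climbs from 37.5 to 41.5 CPM in DMSO to 301 to 317 CPM in the combination.

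Per kilobase, the members spanned a wide range in DMSO. HIF1A was the most abundant of the 10 at 29.0 ± 1.84 RPKM (SD, n = 3), followed by VHL at 23.3 ± 1.05, EGLN1 at 11.1 ± 0.637, ARNT at 9.08 ± 0.202, VEGFA at 6.83 ± 0.274 and NDRG1 at 4.08 ± 0.227. The lowest were EGLN3 at 1.45 ± 0.0714, STC1 at 0.921 ± 0.186, EGLN2 at 0.420 ± 0.116 and EPAS1 at 0.0974 ± 0.0185. No 2 neighbors in this order overlapped among the 3 DMSO libraries. In the combination the order changed, with NDRG1 at 31.7 ± 0.877 RPKM beside HIF1A at 32.0 ± 1.70, whose ranges overlapped. ARNT, EGLN1 and VEGFA stood close there at 12.8 ± 0.368, 12.4 ± 0.580 and 12.01 ± 0.168 RPKM, the range of EGLN1 overlapping those of the other two, and EPAS1, EGLN2 and STC1 formed a last overlapping group at 0.698 ± 0.185, 0.644 ± 0.163 and 0.467 ± 0.232 RPKM.

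Among the factors, HIF1A (ENSG00000100644, chromosome 14, 61695513 to 61748259, plus strand, hg38) encodes the broadly expressed alpha subunit. Its level was 146, 142 and 159.8 CPM in DMSO, 132, 131 and 131 in AKTi, 216, 248.6 and 246 in EZH2i, against 175, 161 and 159 in the combination. The EZH2i libraries stood above all others, the AKTi libraries lay below DMSO, and the combination libraries overlapped DMSO. HIF1A rose by 0.67 with EZH2i on the log2 scale (SE 0.0599, edgeR adjusted p = 3.41e-12). With AKTi the log2 fold change was -0.19 (SE 0.0614, edgeR adjusted p = 0.0126), a call that was lost by library size scaling (-0.13, adjusted p = 0.0890), by upper-quartile scaling (-0.13, adjusted p = 0.0787) and without DMSO C (-0.13, adjusted p = 0.104). In the combination the change was 0.14 (SE 0.0603, adjusted p = 0.0341), and DESeq2 did not call it (0.13, adjusted p = 0.0683). That call was also lost when every gene with at least 1 count was tested (adjusted p = 0.189), when only the arms compared were fitted (adjusted p = 0.0597) and in 8 of the 12 fits that left out 1 library, down to 0.06 without DMSO B (adjusted p = 0.449). Compared with EZH2i alone, adding AKTi lowered HIF1A by a log2 fold change of -0.52 (SE 0.0594, adjusted p = 2.40e-09).

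EPAS1 (ENSG00000116016, chromosome 2, 46293667 to 46386703, plus strand) encodes the alpha subunit of HIF-2, which is best known from kidney, endothelium and lung. It was the scarcest member in DMSO, with 9 to 18 counts per library there and 5 to 20 in AKTi, against 57 to 84 in EZH2i and 60 to 109 in the combination. In CPM it stood at 0.606, 0.664 and 0.863 in DMSO, 0.362, 1.40 and 0.973 in AKTi, 5.62, 3.33 and 3.77 in EZH2i, against 5.37, 6.28 and 3.62 in the combination. Every library with tazemetostat was above every library without it. The log2 fold change was 2.52 with EZH2i (SE 0.336, adjusted p = 3.35e-08) and 2.80 in the combination (SE 0.331, adjusted p = 1.64e-09), while AKTi gave 0.33 (SE 0.423, adjusted p = 0.565; 95% interval -0.50 to 1.16). The combination and EZH2i could not be separated at this depth, with a log2 difference of 0.28 (95% interval -0.23 to 0.79, adjusted p = 0.403).

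ARNT (ENSG00000143437, chromosome 1, 150809705 to 150876768, minus strand), the partner of both alpha subunits, ran from 57.8 to 60.4 CPM in DMSO, 62.5 to 67.6 in AKTi, 75.9 to 77.9 in EZH2i and 81.4 to 85.8 in the combination. The 4 ranges did not overlap. It rose by a log2 fold change of 0.38 with EZH2i (SE 0.0616, adjusted p = 1.25e-06) and 0.49 in the combination (SE 0.0614, adjusted p = 6.29e-09). AKTi alone gave 0.14 (SE 0.0631, adjusted p = 0.0678), which passed the test with library size scaling (0.20, adjusted p = 0.00981).

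Because the alpha subunits moved by different amounts, their balance was taken within each library, where the scaling of libraries cancels. The log2 ratio of HIF1A to EPAS1 in RPKM was 8.42, 8.24 and 8.04 in DMSO, 9.01, 7.05 and 7.57 in AKTi, 5.76, 6.73 and 6.53 in EZH2i, against 5.53, 5.18 and 5.96 in the combination. On a linear scale HIF1A was 262 to 342 times EPAS1 in DMSO, 54.3 to 106 times in EZH2i and 36.3 to 62.1 times in the combination, so HIF1A RNA remained the more abundant in all 12 libraries. The mean log2 ratio fell by 1.89 with EZH2i and by 2.68 in the combination, and in both the ranges were apart from DMSO (two-sided exact permutation p = 0.1 each, the smallest that 3 libraries against 3 allow; adjusted over 10 ratio comparisons, 0.143). In AKTi the difference was -0.35 (exact permutation p = 0.6), with libraries on both sides of the DMSO range.

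**Figure D2:**
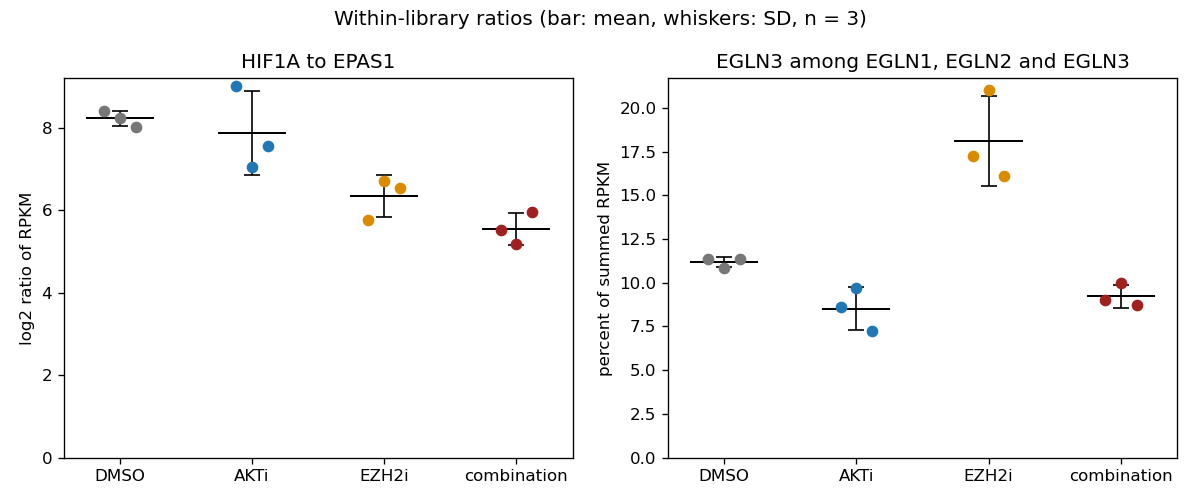
Ratios within each library: left, the log2 ratio of HIF1A to EPAS1 RPKM, and right, EGLN3 as a percent of the summed RPKM of EGLN1, EGLN2 and EGLN3. Points are libraries, bars are means and whiskers are SD (n = 3). The HIF1A to EPAS1 ratio is at or under 6.73 in the 6 tazemetostat libraries and at or above 7.05 in the other 6, and the EGLN3 share is highest in EZH2i at 16.1% to 21.0%.

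The hydroxylases did not move together. EGLN1 (ENSG00000135766, chromosome 1, 231363751 to 231425044, minus strand), the main HIF prolyl hydroxylase under normal oxygen, was at 75.6, 84.5 and 82.1 CPM in DMSO, 70.4, 74.1 and 76.3 in AKTi, 61.9, 65.8 and 69.3 in EZH2i, against 93.9, 85.6 and 90.9 in the combination. The EZH2i libraries were the lowest of the 12 and the combination libraries the highest. EGLN1 fell with EZH2i by a log2 fold change of -0.30 (SE 0.0650, adjusted p = 1.46e-04), and AKTi gave -0.13 (SE 0.0654, adjusted p = 0.0978). In the combination it was higher than DMSO by 0.16 (SE 0.0639, adjusted p = 0.0258), a call lost when every gene with at least 1 count was tested (adjusted p = 0.174) and in 9 of the 12 fits without 1 library, with values of 0.10 to 0.15 and adjusted p of 0.0569 to 0.187. Against EZH2i alone the combination was higher by 0.45 (SE 0.0643, adjusted p = 2.48e-07).

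EGLN3 (ENSG00000129521, chromosome 14, 33924231 to 34462774, minus strand), the family member that hypoxia itself induces in many cells, was at 10.1, 10.9 and 11.1 CPM in DMSO, 6.94, 8.34 and 6.12 in AKTi, 14.1, 18.4 and 13.97 in EZH2i, against 9.99, 9.97 and 9.30 in the combination. The AKTi libraries were the lowest, the EZH2i libraries the highest, and the combination lay just under DMSO. EGLN3 fell with AKTi (log2 fold change -0.59, SE 0.147, adjusted p = 0.00125) and rose with EZH2i (0.53, SE 0.133, adjusted p = 7.11e-04). The combination was at -0.13 (SE 0.138, adjusted p = 0.387), and this estimate was above 0 by library size (0.06) and upper-quartile scaling (0.05). The sum of the single-agent log2 changes was -0.06, and the interaction of -0.08 did not pass the test (adjusted p = 0.824; 95% interval -0.47 to 0.31). The annotated span of EGLN3 overlaps SPTSSA on the same strand, a gene with 14812 counts in all, so reads shared between them would be uncertain.

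EGLN2 (ENSG00000269858, chromosome 19, 40798996 to 40808433, plus strand), the hydroxylase least tied to hypoxia, had only 16 to 95 counts per library. It was at 1.95, 3.47 and 2.88 CPM in DMSO, 2.10, 2.17 and 1.11 in AKTi, 4.35, 2.28 and 2.21 in EZH2i, against 4.82, 2.998 and 4.89 in the combination. Every treated arm overlapped DMSO. The combination gave 0.62 (SE 0.279, adjusted p = 0.0459), which DESeq2 (0.61, adjusted p = 0.0683) and the fit with a replicate block (0.59, adjusted p = 0.0599) did not call, and which was lost in 8 of the 12 fits without 1 library. A readthrough gene, RAB4B-EGLN2, overlaps it on the same strand with 4 counts in all, and reads shared by both annotations may not have been counted, so the level of EGLN2 is uncertain.

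As a share of the 3 hydroxylases in RPKM, EGLN3 made up 11.4%, 10.9% and 11.4% in DMSO, 8.62%, 9.72% and 7.23% in AKTi, 17.2%, 21.0% and 16.1% in EZH2i, against 9.04%, 9.97% and 8.71% in the combination. EGLN1 supplied most of the rest, 85.6% ± 0.507 in DMSO and 78.0% ± 2.68 in EZH2i (SD, n = 3 each). The level of EGLN2 is uncertain, and any EGLN2 reads not counted would make the shares of EGLN1 and EGLN3 too high. The EGLN3 share was apart from DMSO in all 3 treated arms (two-sided exact permutation p = 0.1 each, the smallest possible, and 0.143 adjusted over 10). In the combination EGLN3 itself did not pass the test against DMSO. The other parts of the sum were higher there, EGLN1 at 12.4 against 11.1 RPKM in DMSO and EGLN2 at 0.644 against 0.420. Both of those calls were lost under several alternatives. Leaving EGLN2 out of the sum, an alternative chosen after the data were seen, gave means of 11.6% in DMSO, 8.74% in AKTi, 18.9% in EZH2i, against 9.67% in the combination.

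VHL (ENSG00000134086, chromosome 3, 10141008 to 10152220, plus strand) was the steadiest member, between 91.5 and 113 CPM over all 12 libraries. It was at 102, 93.6 and 98.5 CPM in DMSO and 111, 105 and 113 in AKTi, with no overlap. AKTi raised it by a log2 fold change of 0.16 (SE 0.0592, adjusted p = 0.0300), a call lost when every gene with at least 1 count was tested (adjusted p = 0.125) and in 6 of the 12 fits without 1 library. With EZH2i the difference was -0.04 (95% interval -0.16 to 0.07, adjusted p = 0.531) and in the combination 0.06 (95% interval -0.06 to 0.17, adjusted p = 0.376). These small values depend on the scaling. By library size only, the EZH2i estimate was 0.10 and that of the combination 0.26 (adjusted p = 2.48e-04), close to the median of all tested genes in the combination under that scaling, 0.26.

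**Figure D3:**
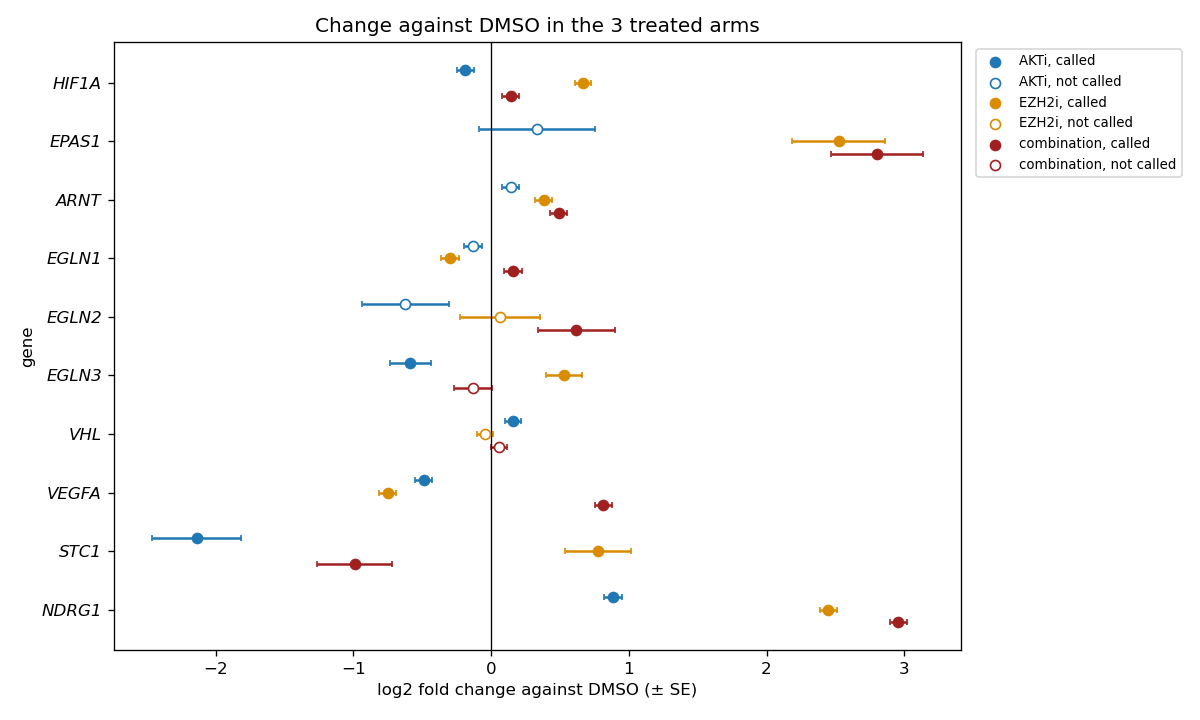
Log2 fold change of each gene against DMSO, with SE as whiskers, for AKTi (blue), EZH2i (orange) and the combination (red). Filled points have an edgeR adjusted p under 0.05. The 3 arms share the same DMSO libraries. VEGFA lies at -0.49, -0.75 and 0.82, STC1 at -2.14, 0.78 and -0.99, and NDRG1 at 0.89, 2.45 and 2.96.

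The 3 targets each followed a course of their own. VEGFA (ENSG00000112715, chromosome 6, 43770184 to 43786487, plus strand), the angiogenic growth factor and a textbook HIF target, was at 103, 95.5 and 97.1 CPM in DMSO, 73.1, 69.3 and 67.9 in AKTi, 61.9, 53.4 and 60.3 in EZH2i, against 175, 171 and 175 in the combination. No 2 arms overlapped, and the arm with both agents lay on the opposite side of DMSO from either agent alone. VEGFA fell with AKTi (log2 fold change -0.49, SE 0.0627, adjusted p = 4.38e-08) and with EZH2i (-0.75, SE 0.0626, adjusted p = 4.69e-13) and rose in the combination (0.82, SE 0.0596, adjusted p = 6.57e-15). In the combination it was higher than in AKTi by 1.31 (SE 0.0616, adjusted p = 4.13e-20) and higher than in EZH2i by 1.57 (SE 0.0616, adjusted p = 4.84e-22). That last difference was higher than in 98.7% of all tested genes. No alternative fit changed any of these calls.

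STC1 (ENSG00000159167, chromosome 8, 23841915 to 23854807, minus strand), a secreted glycoprotein hormone that hypoxia induces in many cells, was scarce at 9 to 132 counts per library. It was at 4.11, 2.95 and 4.41 CPM in DMSO, 1.09, 0.631 and 0.904 in AKTi, 6.63, 7.19 and 6.06 in EZH2i, against 2.23, 0.865 and 2.72 in the combination. The 6 libraries with ipatasertib lay below every library without it, and the EZH2i libraries lay above DMSO. AKTi lowered STC1 by a log2 fold change of -2.14 (SE 0.324, adjusted p = 1.12e-06), which placed it 29th from the bottom of 16646 genes. EZH2i raised it by 0.78 (SE 0.243, adjusted p = 0.00558), a call lost without DMSO B (0.58, adjusted p = 0.0598). The combination was lower than DMSO by -0.99 (SE 0.274, adjusted p = 0.00154) and lower than EZH2i by -1.77 (SE 0.261, adjusted p = 5.69e-07). It was higher than AKTi by 1.15 (SE 0.349, adjusted p = 0.00451), though 1 combination library lay within the AKTi range and the call was lost without combination C (0.85, adjusted p = 0.0513).

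NDRG1 (ENSG00000104419, chromosome 8, 133237171 to 133302022, minus strand), a stress- and differentiation-related gene that hypoxia and androgen both induce, had the largest log2 fold change of the 10 in the combination. It was at 37.5, 41.5 and 41.1 CPM in DMSO, 70.2, 73.4 and 78.7 in AKTi, 218, 214 and 225 in EZH2i, against 317, 314 and 301 in the combination. The 4 arms were ordered without overlap. The log2 fold change was 0.89 with AKTi (SE 0.0640, adjusted p = 6.14e-14), 2.45 with EZH2i (SE 0.0616, adjusted p = 4.91e-28) and 2.96 in the combination (SE 0.0619, adjusted p = 3.64e-31), and no alternative fit changed these calls. Most prostate line markers rose in the same arms. Of 8, 7 were higher and 1 lower in AKTi, where 20.6% of all tested genes were higher and 21.9% lower. In EZH2i 6 were higher and 0 lower, against 32.6% and 31.5% of all genes, and DESeq2 called 1 lower there. In the combination 7 were higher and 1 lower, against 38% and 35.2% of all genes. The summed level of these markers was 3809 to 3940 CPM in DMSO and 7995 to 8189 CPM in the combination. Whether NDRG1 moved with them or with the hypoxia pathway was not tested.

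The other 3 contrasts set the combination beside each single agent and the single agents beside each other. Tazemetostat was given from 6 days before day 0 and ipatasertib only from day 0. Agent and duration of treatment therefore cannot be told apart between the single agents. The combination was higher than AKTi in 9 of the 10 genes and lower in 0, where 64.2% of all tested genes passed (32.1% higher, 32.1% lower), and VHL was the gene not called (-0.10, adjusted p = 0.139). The EGLN3 call (0.45, adjusted p = 0.00738) was lost without AKTi A (adjusted p = 0.0520) or AKTi C (adjusted p = 0.0754). The combination was higher than EZH2i in 3 genes (EGLN1, VEGFA and NDRG1) and lower in 3 (HIF1A, EGLN3 and STC1), where 46.7% of all genes passed (21.1% higher, 25.7% lower). EZH2i was higher than AKTi in 6 genes and lower in 3, where 50.4% of all genes passed (25.4% higher, 25.1% lower), with STC1 (2.91, SE 0.308, adjusted p = 4.10e-10) and EPAS1 (2.19, SE 0.332, adjusted p = 7.81e-07) at the largest differences. The 3 lower genes were EGLN1 (-0.16, adjusted p = 0.0392), VHL (-0.20, adjusted p = 0.00447) and VEGFA (-0.26, adjusted p = 8.62e-04). Of these, EGLN1 was lost by library size (adjusted p = 0.357) and upper-quartile scaling (adjusted p = 0.202) and in 4 of the 12 fits without 1 library, and VHL by library size scaling (adjusted p = 0.107).

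The interaction, the log2 change of the combination minus the sum of the single-agent changes, asks whether both agents together did more or less than their sum. It passed the test in 5 of the 10 genes, 3 higher and 2 lower, where 28.2% of all tested genes passed (10.7% higher, 17.5% lower). VEGFA departed most. The single-agent changes summed to -1.24, the combination was at 0.82, and the interaction was 2.06 (SE 0.0878, adjusted p = 4.42e-20), the 122nd highest of 16646 genes. EGLN1 summed to -0.43 against 0.16 measured (interaction 0.59, SE 0.0917, adjusted p = 4.19e-06), and EGLN2 to -0.55 against 0.62 (interaction 1.17, SE 0.419, adjusted p = 0.0328), the latter lost in 7 of the 12 fits without 1 library. HIF1A (interaction -0.34, SE 0.0854, adjusted p = 0.00254) and NDRG1 (-0.38, SE 0.0838, adjusted p = 6.19e-04) ended below their sums of 0.48 and 3.33. For the other 5 the interaction did not pass, with 95% intervals of -0.99 to 0.88 for EPAS1, -0.21 to 0.13 for ARNT, -0.47 to 0.31 for EGLN3, -0.22 to 0.11 for VHL and -0.47 to 1.21 for STC1, so sizable departures in EPAS1 and STC1 were not detectable at this depth.

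**Figure D4:**
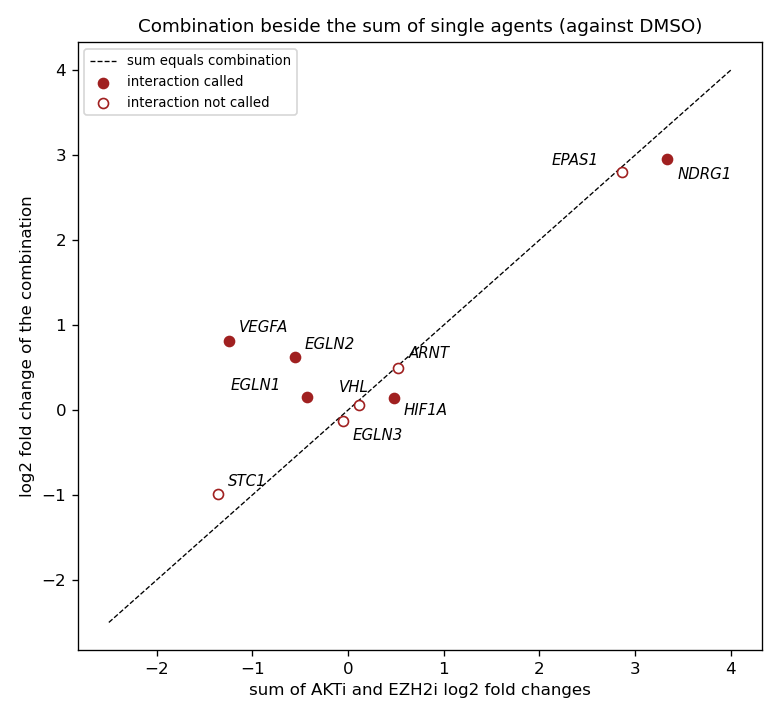
Log2 fold change of the combination against DMSO (vertical) beside the sum of the AKTi and EZH2i log2 fold changes (horizontal), with filled points where the interaction had an adjusted p under 0.05. On the dashed line the combination equals the sum. VEGFA lies farthest above the line (-1.24 summed, 0.82 measured), and NDRG1 and HIF1A lie below it.

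Around the members, 18 other genes of HIF control were followed, of which 17 were tested and HIF3A had 0 to 2 counts per library. In AKTi 7 were higher and 5 lower, in EZH2i 7 and 7, and in the combination 8 and 7, where 42.5%, 64.1% and 73.2% of all tested genes passed in either direction. Their medians were 0.11, -0.02 and -0.06, against 0.007, 0.03 and 0.06 for all tested genes. By library size the EZH2i and combination medians were 0.13 and 0.14, against 0.17 and 0.26 for all tested genes. With that scaling 4 genes instead of 7 were lower in each of these arms. Lower calls among all tested genes went from 5249 to 4193 in EZH2i and from 5866 to 4749 in the combination. ARNT2, a second partner that can replace ARNT, rose from 1.84 ± 0.258 CPM in DMSO to 3.95 ± 0.475 in AKTi, 15.7 ± 1.99 in EZH2i, then 23.7 ± 1.60 with both agents (SD, n = 3 each; log2 fold changes 1.08, 3.08 and 3.66, adjusted p = 2.62e-05, 1.75e-18 and 1.24e-21). VHL works in a ligase with elongins, a cullin and a RING protein, and several of these were lower where VHL was not. In the combination the log2 fold change was -1.17 for the elongin ELOC, -0.80 for the cullin CUL2 and -1.27 for the RING protein RBX1 (adjusted p = 2.68e-18, 4.27e-13 and 1.11e-16). All 3 were also lower in AKTi (-0.71, -0.54 and -0.55) and in EZH2i (-0.80, -0.47 and -0.53). The other elongin, ELOB, was with TMM scaling at 0.01 in AKTi, -0.19 in EZH2i, then -0.49 with both agents (adjusted p = 0.925, 0.00859 and 2.46e-08). CREBBP, a coactivator that HIF recruits, rose by 1.18 in the combination (adjusted p = 2.92e-20) and OS9, an ER lectin-like protein reported to bind HIF-1α and its hydroxylases, by 1.05 (adjusted p = 4.35e-18). USP20, a deubiquitinase, rose by 0.50 in AKTi and 0.65 in EZH2i.

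The wider response was read from 41 HIF-responsive genes that are not glycolytic enzymes, of which 37 were tested. CA9, a carbonic anhydrase widely used as a hypoxia marker, was not tested, with 0 to 7 counts per library, and ANGPTL4 and EPO were under the filter too. In AKTi 8 rose and 16 fell (median log2 fold change -0.20, against 0.007 for all tested genes), where 20.6% of all tested genes were higher and 21.9% lower. In EZH2i 14 rose and 12 fell (median -0.08, against 0.03 for all genes), where 32.6% of all genes were higher and 31.5% lower. In the combination 18 rose and 16 fell (median -0.13, against 0.06), where 38% of all genes were higher and 35.2% lower. By library size the EZH2i and combination medians were 0.07 and 0.07, against 0.17 and 0.26 for all tested genes. By upper quartile they were 0.04 and 0.05, against 0.15 and 0.25. Both list medians lay below the all-gene median under these scalings and with TMM. The single genes moved far apart. In the combination RORA, a nuclear receptor, rose by 4.05 on the log2 scale, PLOD2, a collagen lysyl hydroxylase, by 2.23 and HMOX1, the heme oxygenase, by 1.81 (adjusted p = 3.80e-19, 9.56e-11 and 2.32e-19). In the same libraries TFRC, the transferrin receptor, had a change of -3.25, HILPDA, a lipid droplet protein, of -2.23 and JMJD6 of -1.86 (adjusted p = 2.07e-32, 6.16e-20 and 5.12e-17). Over all 12 libraries RORA and PLOD2 were scarce, at 11 to 300 and 4 to 293 counts, against 1834 to 22628 for TFRC. In AKTi MXI1, a MAX partner, and KDM4B, a histone demethylase, rose by 0.67 and 0.48, while ANKRD37 was at -1.02 (adjusted p = 2.75e-04) and HILPDA at -0.82. RORA (0.72, adjusted p = 0.0438) and PLOD2 (-1.01, adjusted p = 0.0176) also passed in AKTi, RORA not by DESeq2 (adjusted p = 0.0597) and PLOD2 not without DMSO C (adjusted p = 0.163) or AKTi A (adjusted p = 0.145). In EZH2i PLOD2 rose by 3.26, RORA by 2.71 and LOXL2, a lysyl oxidase-like enzyme, by 1.51 (adjusted p = 2.14e-15, 6.77e-13 and 1.30e-04), while TFRC was at -1.62 and HILPDA at -1.28. LOXL2 was scarce too, at 6 to 60 counts per library. STC2, the relative of STC1, was one of the lowest in EZH2i (-1.22, adjusted p = 5.67e-20) and higher in the combination (0.55, adjusted p = 2.49e-11), as VEGFA was.

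**Figure D5:**
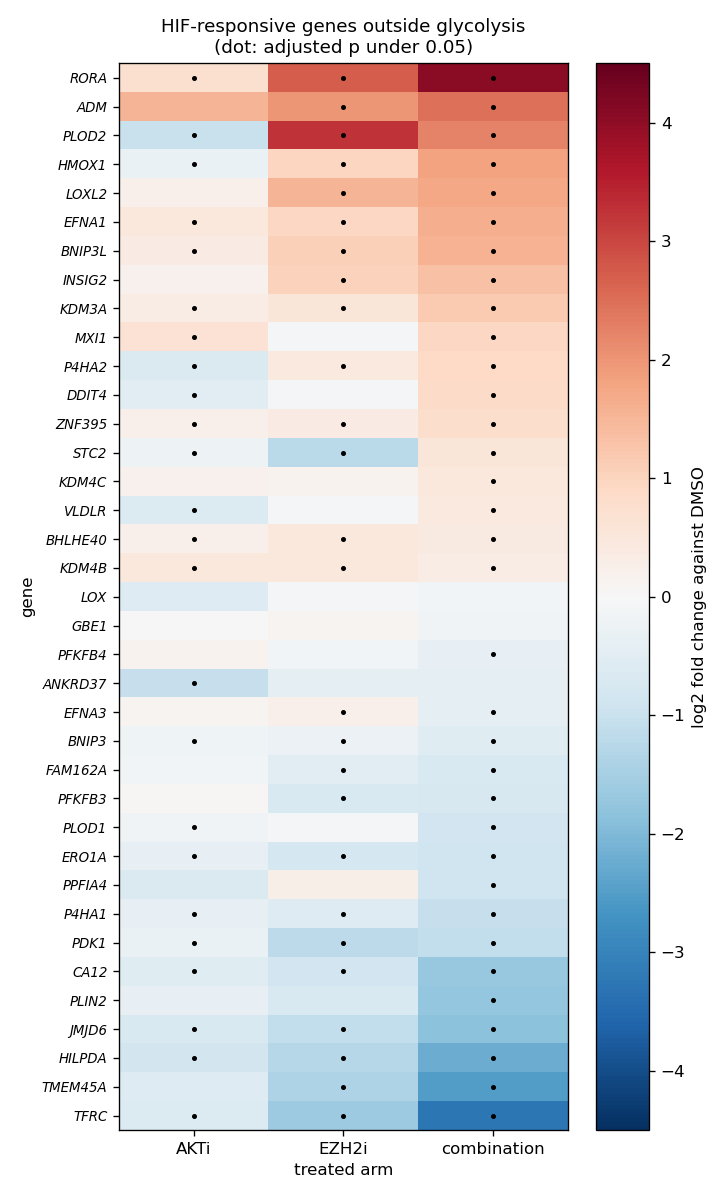
Log2 fold change against DMSO of the 37 tested HIF-responsive genes outside glycolysis in AKTi, EZH2i and the combination, ordered by the combination. Red is higher, blue is lower and a dot marks an edgeR adjusted p under 0.05. Genes range from RORA (4.05 in the combination, with 11 to 300 counts per library over all arms) to TFRC (-3.25). In the combination 18 genes are higher and 16 lower, where 38% of all tested genes were higher and 35.2% lower.

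The HIF-responsive glycolytic genes moved more uniformly. Of 17 listed, 16 were tested (SLC2A3 had 0 to 4 counts per library). AKTi raised 2 and lowered 10, EZH2i raised 2 and lowered 12, and the combination raised 1 and lowered 15, where 21.9%, 31.5% and 35.2% of all tested genes were lower. Their medians were -0.33, -0.59 and -1.51, against 0.007, 0.03 and 0.06 for all tested genes. HK2, the inducible hexokinase, went from 110.2 ± 11.98 CPM in DMSO to 27.3 ± 2.54 in the combination (SD, n = 3 each; log2 fold change -2.02, adjusted p = 2.41e-23). The gene that rose in the combination was ENO2, the neuronal-type enolase, from 4.90 ± 0.307 to 8.75 ± 2.13 CPM (0.84, adjusted p = 6.04e-05), while the major enolase ENO1 was at -1.93 (adjusted p = 1.37e-27). PGAM1, a phosphoglycerate mutase, was at -0.54 in AKTi (adjusted p = 3.02e-11), and HK1, the constitutive hexokinase, at 0.16 in EZH2i (adjusted p = 0.0138), which did not pass with every gene of at least 1 count tested (adjusted p = 0.0542). The lactate exporter SLC16A3 and the phosphofructokinase PFKL were higher in AKTi (0.27 each), SLC16A3 not without AKTi C (0.20, adjusted p = 0.0657). In the combination VEGFA and NDRG1 were higher in the same libraries in which LDHA and most of its pathway were lower.

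Of 6 genes known to prefer HIF-2α, 3 rose and 3 fell in the combination, where 38% of all tested genes were higher and 35.2% lower. Their median log2 fold change there was 0.06, as it was for all tested genes. In EZH2i 3 rose and 2 fell (median 0.34, against 0.03), where 32.6% of all tested genes were higher and 31.5% lower. In AKTi 2 rose and 0 fell (median 0.10, against 0.007), where 20.6% were higher and 21.9% lower. EPAS1 itself was higher in EZH2i and in the combination. Of the 6 genes, POU5F1 (1 to 44 counts per library) and CYBRD1 (0 to 15) were scarce. TGFA, a growth factor, rose by 0.64, 2.59 and 2.63 in AKTi, EZH2i and the combination (adjusted p = 0.0242, 2.09e-14 and 5.92e-15), and SLC40A1, the iron exporter ferroportin, by 0.46 and 0.54 in EZH2i and the combination. CCND1, cyclin D1, was higher in AKTi (0.24) and EZH2i (0.22) and lower in the combination (-0.42, adjusted p = 1.10e-08), the opposite course to VEGFA. SLC11A2, an iron importer, was at -0.47 in EZH2i and -0.52 in the combination. Among relatives of VEGFA and NDRG1, 4 of 7 were tested. VEGFB rose in all 3 treated arms, by 1.09, 1.52 and 2.27 (adjusted p = 1.53e-08, 3.89e-13 and 7.85e-19), from 6.16 ± 0.383 CPM in DMSO to 29.6 ± 1.02 in the combination, where VEGFA and VEGFB were both higher. NDRG3 rose by 0.16, 0.41 and 0.24, and NDRG2 by 0.20 in AKTi and 0.21 in EZH2i. With every gene of at least 1 count tested, TGFA, NDRG2 and NDRG3 in AKTi and SLC40A1 and NDRG2 in EZH2i no longer passed.

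The genes' promoters were searched for the HIF core letters ACGTG and GCGTG on both strands, in RefSeq windows from 250 bases before to 50 after each start (GRCh38.p14). ACGTG preceded by C reads CACGTG, which is the same on both strands and overlaps the E-box that MYC and related factors bind. ACGTG was found in 21.4% of 35116 windows and GCGTG in 36.5%. The members with a window were HIF1A, EPAS1, ARNT, EGLN1, EGLN2 and EGLN3, with 8 windows in all, 2 of which held ACGTG and 2 GCGTG. Windows of VHL, VEGFA, STC1 and NDRG1 were not analysed here. In the windows of ARNT and EGLN3 neither was found. The list of HIF-responsive genes outside glycolysis held ACGTG in 24 of 42 windows (57.1%) and the glycolytic list in 14 of 34 (41.2%). The matches of the 4 members are shown because these genes set the supply and breakdown of the alpha subunits, and those of LDHA and ANKRD37 because these were among the most lowered HIF-responsive genes with AKTi. Each line gives 29 bases, 5′ to 3′ on the gene's strand, with the match in capitals.
HIF1A: tggctgagagcgGCGTGggctggggtggg
EPAS1: gggcctgccggcGCGTGcccgcccacaca
EGLN1: gggccgtggtgtACGTGcagagcgcgcag
EGLN2: cggggcgcggtcACGTGcccaccgggcga
LDHA: gactcccagcgcACGTGgagcagtctgcc
LDHA, site 2: agcccgactcacACGTGggttcccgcacg
LDHA, site 3: cgtgggttcccgCACGTccgccggccccc
ANKRD37: gcgccgggctccACGTGccagtgtttgtg
ANKRD37, site 2: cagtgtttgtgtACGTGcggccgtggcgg

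The HIF1A match lies at chr14:61695297-61695325 (plus strand), 204 bases before the RefSeq start, and the EPAS1 match at chr2:46297278-46297306 (plus strand), 117 bases before it. EGLN1 has its match at chr1:231422284-231422312 (minus strand), 13 bases before the start. In EGLN2 it is at chr19:40799131-40799159 (plus strand), 48 bases before the start, and it reads CACGTG, as do the first match of ANKRD37 and the first and second of LDHA. The LDHA matches lie at chr11:18394367-18394395, chr11:18394465-18394493 and chr11:18394478-18394506 (plus strand), 184, 86 and 73 bases before its start, the last with ACGTG on the opposite strand, so that its letters read CACGT here. Those of ANKRD37 are at chr4:185396668-185396696 and chr4:185396686-185396714 (plus strand), 161 and 143 bases before its start. EGLN1, which fell with EZH2i, and EGLN2, which did not pass the test there, both carry ACGTG near the start, and EGLN3, which fell with AKTi and rose with EZH2i, has neither core in its window. A match is a description of letters and not of a bound site, and sequence outside the windows was not searched. Any link between these letters and the changes in RNA was not tested.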

How the data were processed

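Gene counts of 12 C4.2B libraries (4 arms, 3 each) were analysed. The authors aligned reads to hg38 with STAR and counted them per gene with HTSeq, and the deposited table holds those raw counts. For versions, gene annotation and strand handling, details are not given in the sources used here. The deposited normalized signal is the count divided by 1 DESeq2 size factor per library and was used only as a check. The deposited gene length column served for RPKM.

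Genes were kept with filterByExpr of edgeR 4.0.16 in R 4.3.3 (minimum count 10, minimum total 15) and TMM-scaled, and 1 mean per arm was fitted over all 12 libraries with the quasi-likelihood test, adjusted by Benjamini-Hochberg over 16646 genes at 0.05. At 14133755 to 22276417 counts per library, counting error among the members is small except for EPAS1, EGLN2 and STC1. To a lesser degree it also affects EGLN3, at 88 to 315 counts per library. Of the other named genes, the lowest library had 0 counts for CYBRD1, 1 for POU5F1, 4 for PLOD2, 6 for LOXL2, 11 for RORA, 20 for TGFA and 21 for ARNT2. Ratios were compared by two-sided exact permutation (scipy 1.17.1). Intervals of 95% are normal approximations from the SE.

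Alternatives were DESeq2 1.42.0, library size only or upper-quartile scaling, at least 1 count in total or 10 in every library, only the arms compared, a replicate block, each library left out and, for ratios, raw counts. The edgeR and DESeq2 fits and the permutation test were tried on simulated data, the promoter search was not. In the simulated counts few genes changed, equally in both directions. Scaling under changes as broad as those here was therefore not tested. Libraries of 1 arm differed by more than sampling noise. The sequencing platform of each library is not given in the sources used here, so no such batch could be fitted. The gene lists were written from memory, and members and lists were chosen with earlier results of these data known. All members were named, and from each list up to 3 genes with the largest and 3 with the smallest log2 fold change in each treated arm against DMSO, among those past the test whose mean log2 CPM was 1 or more. For 6 members the 3 genes with the highest correlation over the libraries were also named. Genes under the filter, genes overlapping a member, ELOB, POU5F1, CYBRD1, CD3E, KRT5, COL1A1 and VWF were added after their values were seen.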

Additional observations from a re-analysis of the deposited data

Results flagged for a closer look

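Among the 10 genes, 5 had an AKTi effect that differed with and without EZH2i by edgeR's interaction test. The AKTi effect on VEGFA was -0.49 without and 1.57 with EZH2i, a difference of 2.06 on the log2 scale (adjusted p = 4.42e-20), with all 3 AKTi libraries below DMSO and all 3 combination libraries above EZH2i. For EGLN1 the effect was -0.13 without and 0.45 with EZH2i, a difference of 0.59 (adjusted p = 4.19e-06). For EGLN2 it was -0.62 and 0.55, a difference of 1.17 (adjusted p = 0.0328), at 16 to 95 counts per library. For HIF1A it was -0.19 and -0.52, a difference of -0.34 (adjusted p = 0.00254). For NDRG1 it was 0.89 and 0.51, a difference of -0.38 (adjusted p = 6.19e-04). In a group of 3 libraries no test for an outlying library was made.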

How the results depend on the processing

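Over 7 comparisons the 10 genes gave 70 results, of which 51 passed the test. Of these, 40 kept their call and direction under each alternative that was run, 11 lost the call under at least 1, and 0 changed sign. Of the 19 others, 8 passed under some alternative and 10 changed sign under some. The number of members called in the combination against DMSO was 8, ranged from 5 to 9 over all alternatives and from 5 to 8 when libraries were left out in turn, and was 5 without DMSO A, any 1 AKTi library, EZH2i A or combination A. The replicate letters did not pair the libraries (correlations of -0.058 to 0.069 over 18 same-letter pairs, 0 over 0.1, with 0 of 12 libraries closest to their own letter). The fit with a replicate block changed 1 call among members, that of EGLN2 in the combination against DMSO (0.59, adjusted p = 0.0599).

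By library size and by upper quartile, estimates that had not passed changed sign for VHL in EZH2i (0.10 and 0.076) and in the combination against AKTi (0.039 and 0.027), and for EGLN3 in the combination against DMSO (0.062 and 0.051). The scaling moves all genes together. For the combination against DMSO, the all-gene median was 0.26 by library size and 0.25 by upper quartile, instead of 0.06 with TMM. In that order, higher and lower calls were 7574 and 4749, 7502 and 4821, and 6320 and 5866. Leaving out 1 library at a time changed the sign of some estimates, whose ranges were -0.13 to 0.70 for EPAS1 in AKTi and -0.92 to 0.061 for its log2 ratio from HIF1A there (sign changed without AKTi B for both), -0.33 to 0.21 for EGLN2 in EZH2i, -0.019 to 0.080 for VHL in the combination, and for the interaction -0.46 to 0.42 for EPAS1, -0.077 to 0.015 for ARNT, -0.17 to 0.083 for EGLN3 and -0.11 to 0.011 for VHL. None of the values of changed sign passed the test, and the cause was not tested. Among the members, depth limits EPAS1, EGLN2 and STC1, with as few as 5, 16 and 9 counts in a library, and to a lesser degree EGLN3, with as few as 88.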

Other observations

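Across the 12 libraries, the tested genes whose log2 CPM followed a member most closely were taken by Pearson's r. The libraries form 4 arms, so r mostly reflects arm means, and it is given as a description. For VEGFA they were SLC25A36 (0.974), JADE1 (0.974) and the noncoding NBR2 (0.974), for STC1 DNAJC3 (0.963), LIPG (0.953) and VANGL1 (0.935), and for NDRG1 MICAL1 (0.999), TP53I11 (0.999) and SEPT3 (0.998). For HIF1A they were CTNNB1 (0.979), ROBO1 (0.976) and KCNMA1 (0.972), for EPAS1 C6orf106 (0.981), TPM1-AS (0.974) and GPR161 (0.973), and for EGLN3 TMSB15A (0.975), KRT80 (0.959) and SUCO (0.949).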
